A study of Mus musculus with 6 samples.

Results

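The 10 genes described here make up the transforming growth factor beta (TGF-beta) storage and activin system: the ligands *Tgfb1*, *Tgfb2* and *Tgfb3*, the latent TGF-beta binding proteins *Ltbp1*, *Ltbp2*, *Ltbp3* and *Ltbp4*, the cell-surface anchor *Lrrc32*, the activin A subunit *Inhba* and the activin antagonist *Fst* (follistatin). They were chosen by gene name. Of the 10 names, 9 occur in the deposited tables, each on a single feature, among 48733 gene names in all. *Ltbp1* has no named feature. The 9 named genes each had a mean of at least 1 FPKM (fragments aligned to a gene, scaled to the length of its transcripts and to all aligned fragments of the library) over the 6 libraries and were therefore among the 12112 genes tested.

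RNA came from CC016/GeniUnc mice, which belong to the Collaborative Cross panel of inbred mice. The label bone (3 libraries) stands for cortical femur from which the marrow had been spun out, and the label osteoblasts (3 libraries) for cells grown from bone marrow. These marrow stromal cells had been differentiated for 8 days in dexamethasone (10 nM), ascorbic acid (50 µg/ml) and beta-glycerophosphate (10 mM). The study's methods give 3 mice and describe both femora and marrow cells without naming other animals, so the labels may share mice. No label ties a library to a mouse, so the main fit took the libraries as unpaired. Its p-values measure the spread between these libraries only. The labels give no age and name no mutation or transgene.

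TGF-beta is secreted in a latent form, in which each ligand is held by its own propeptide. The propeptide of TGF-beta is in turn disulphide-bonded to a latent TGF-beta binding protein, which fixes the complex to fibrillin in the matrix, or to LRRC32 (GARP), which holds it on the cell surface. Bone matrix is a large store of latent TGF-beta, which resorbing osteoclasts release and which recruits and restrains osteoblast precursors. Activin A, a dimer of the *Inhba* product, signals through related receptors and the same Smads, and follistatin binds and neutralizes it.

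The libraries did not separate by label in hemoglobin RNA. The hemoglobin gene *Hbb-bt* was above 1000 FPKM in bone replicate 3 and osteoblasts replicates 2 and 3, with 34268 FPKM as the lowest of these values, and at most 7.05 FPKM in the other 3 (bone replicates 1 and 2, and replicate 1 of the osteoblasts). Each value below is therefore given by library, 3 values to a label in the order of replicate number, and the libraries with abundant *Hbb-bt* are called hemoglobin-rich. This is a description of the libraries and not a group of the study, so no mean or test was made over it. The deposited osteoblast markers with a name (5 of 6, *Col1a1* the highest) summed to 2404 to 4243 FPKM under the label bone and to 1676 to 4530 FPKM under the label osteoblasts. By hemoglobin the same sums separated, with 1676 to 2404 FPKM in the hemoglobin-rich libraries and 2769 to 4530 FPKM in the others, and *Ibsp* (bone sialoprotein) was 43.1 to 91.3 and 986 to 1278 FPKM in the same sets, while *Col1a1*, *Runx2* and *Sp7* overlapped. *Sost*, made by the osteocytes of bone tissue, went against the labels: it was 15.8 to 22.7 FPKM in the hemoglobin-rich libraries, a pair of which are labelled osteoblasts, and at most 0.198 FPKM in the others, a pair of which are labelled bone. The other osteocyte markers did not share this order, since *Dmp1* was 22.5 to 24.2 FPKM in the hemoglobin-rich libraries and 50.0 to 127 FPKM in the others, and *Phex* overlapped. Depth, read from the ratio of coverage to FPKM, came to 2.04 to 3.39 gigabases of aligned reads, at which 3 pairs on a transcript of 1 kb give 0.133 to 0.221 FPKM, a floor for counting error alone. Unnamed features held 71.5% of all FPKM in bone replicate 2 and 65.0% in osteoblasts replicate 1, against 27.4 to 30.7% in the others.

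The 3 ligands lie on different chromosomes, *Tgfb1* on the plus strand of chr7:25687002-25705077, *Tgfb2* on the minus strand of chr1:186622792-186705989 and *Tgfb3* on the minus strand of chr12:86056745-86079041 (GRCm38, as the tables give them). RefSeq annotates each as protein-coding. The 150 bases before the RefSeq start of *Tgfb1* (chr7:25686852-25687001, plus strand), *Tgfb2* (chr1:186705990-186706139, minus strand) and *Inhba* (chr13:16011701-16011850, plus strand) are shown here. They were picked because, by FPKM, *Tgfb1* was highest and *Tgfb2* and *Inhba* were lowest in the hemoglobin-rich libraries. On some other scales *Tgfb1* overlapped. Sequences run 5′ to 3′ in the direction of the gene, from RefSeq on GRCm38.p6, and capitals mark a GC box (GGGCGG, either strand) or a TATA box (TATAAA, either strand).
Tgfb1: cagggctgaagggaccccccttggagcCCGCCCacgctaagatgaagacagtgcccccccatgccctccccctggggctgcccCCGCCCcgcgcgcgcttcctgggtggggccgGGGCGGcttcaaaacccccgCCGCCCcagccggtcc
Tgfb2: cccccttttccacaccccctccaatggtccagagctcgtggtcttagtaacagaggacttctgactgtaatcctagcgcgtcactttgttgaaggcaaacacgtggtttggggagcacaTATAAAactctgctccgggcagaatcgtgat
Inhba: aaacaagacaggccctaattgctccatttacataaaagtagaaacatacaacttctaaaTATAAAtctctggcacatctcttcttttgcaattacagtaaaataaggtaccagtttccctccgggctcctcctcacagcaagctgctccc

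The *Tgfb1* window held 4 GC boxes and no TATA box, and the *Tgfb2* window a TATA box whose first base lies 31 bases before the start and no GC box. In the *Inhba* window TATAAA begins 91 bases before the start. Of the 32851 RefSeq promoter windows of this length, 7.57% held TATAAA and 28.6% held GGGCGG. Searched on both strands, the AP-1 site TGANTCA (4.24% of all windows), the cAMP response element TGACGTCA (1.36%) and the Smad element CAGAC (27.7%) were absent from these 3 windows, and no motif overlapped another in them. The *Ltbp1* window held TGACGTCA. GGGCGG without TATAAA also stood in the windows of *Ltbp2*, which had the order of *Tgfb2*, and of *Ltbp4*, which had that of *Tgfb1*. Windows were found for 7 of the 10 genes, and a link of these letters to the levels was not tested. The RefSeq gene models of *Tgfb2* and *Inhba* reach further upstream than these windows. A match is a description of letters and shows no binding.

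*Tgfb1*, the ligand of most blood and immune cells and the main form in bone matrix, was expressed in every library. It measured 26.1, 12.8 and 47.3 FPKM in the bone libraries and 30.7, 37.6 and 43.1 FPKM in the osteoblasts libraries. The labels overlapped, and the hemoglobin-rich libraries had the 3 highest values. Within each library *Tgfb1* was above 78.9 to 92.0% of the genes with at least 1 FPKM.

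*Tgfb2* and *Tgfb3*, the ligands of mesenchymal tissues, had the opposite order. *Tgfb2* measured 17.2, 11.4 and 2.63 FPKM in the bone libraries and 11.4, 1.72 and 1.60 FPKM in the osteoblasts libraries. *Tgfb3* measured 45.4, 15.7 and 6.06 FPKM in the same bone libraries and 20.5, 5.38 and 4.44 FPKM in the same osteoblasts libraries. For both ligands the hemoglobin-rich libraries were the lowest, with the next value 4.35 times as high for *Tgfb2* and 2.59 times as high for *Tgfb3*, while the labels overlapped. *Tgfb3* exceeded *Tgfb2* in all 6 libraries, by 1.37 to 3.13 times on the FPKM scale and by 9.72 to 28.2 times by coverage.

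**Figure D1:**
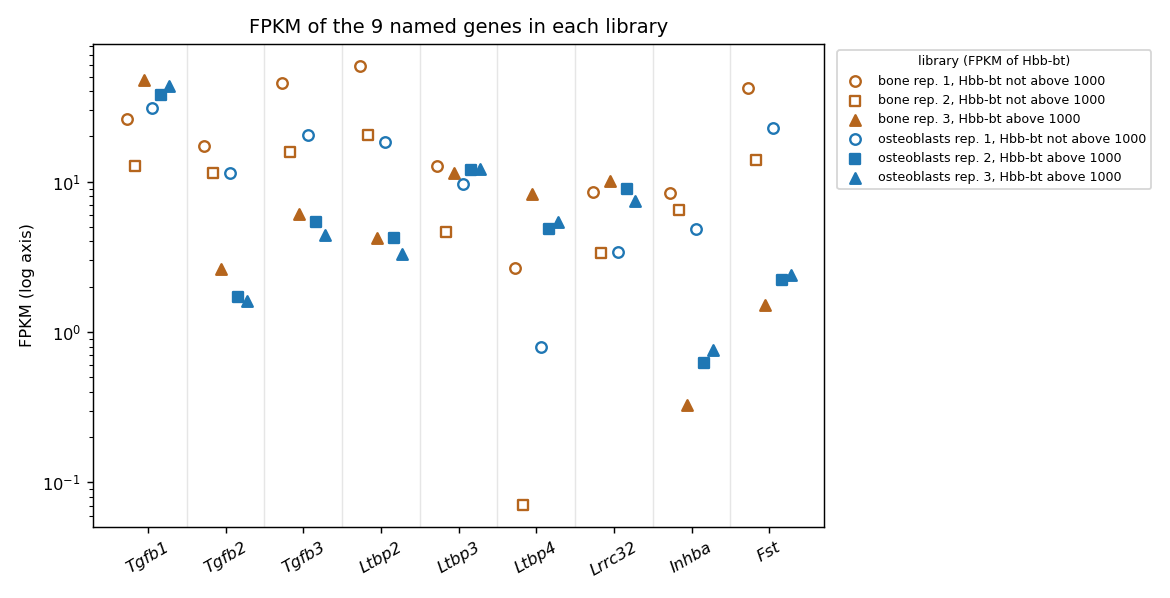
FPKM (log axis) of the 9 named genes in each library, with bone in brown and osteoblasts in blue, filled symbols for libraries with *Hbb-bt* above 1000 FPKM and the symbol shape for the replicate number. *Tgfb2*, *Tgfb3*, *Ltbp2*, *Inhba* and *Fst* have their 3 lowest values in the filled symbols, and *Tgfb1* and *Ltbp4* their 3 highest.

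Within a library the share of each ligand does not depend on how the whole library is scaled. *Tgfb1* made up 29.5, 32.0 and 84.5% of the summed FPKM of the 3 ligands in the bone libraries and 49.0, 84.1 and 87.7% in the osteoblasts libraries. *Tgfb3* made up 51.2, 39.3 and 10.8%, and then 32.7, 12.0 and 9.04%, in the same order. The leading ligand was *Tgfb3* in bone replicates 1 and 2 and *Tgfb1* in the other 4 libraries. The sum of the 3 ligands ran from 39.9 to 88.6 FPKM, and from 14.0 to 53.9 by coverage. As a fold from the lowest to the highest library, both ranges were smaller than that of FPKM for *Tgfb2* (10.7 times) or *Tgfb3* (10.2 times).

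These shares compare genes and so rest on how StringTie assigned reads to transcripts. The deposited coverage of *Tgfb3* was 1.00 times what its FPKM and the depth of the library give, but that of *Tgfb1* was 0.239 times and that of *Tgfb2* 0.139 times (medians over the 6 libraries). With coverage in place of FPKM, *Tgfb1* made up 11.5, 15.4 and 62.3% in the bone libraries and 25.0, 63.3 and 66.7% in the osteoblasts libraries. On that scale *Tgfb3* was also the leading ligand in osteoblasts replicate 1, and *Tgfb1* led in the hemoglobin-rich libraries alone.

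The latent TGF-beta binding proteins split in the same way. *Ltbp2* (chr12:84783212-84876532, minus strand), a fibrillin-binding matrix protein that does not itself bind latent TGF-beta, measured 58.9, 20.4 and 4.22 FPKM in the bone libraries and 18.5, 4.22 and 3.28 FPKM in the osteoblasts libraries. Its 3 lowest values were those of the hemoglobin-rich libraries, and the next value was 4.38 times as high. *Ltbp4* (chr7:27305136-27337692, minus strand), a binding protein of elastic tissues that carries TGF-beta 1, measured 2.65, 0.0704 and 8.29 FPKM in the bone libraries and 0.795, 4.81 and 5.39 FPKM in the osteoblasts libraries. It was highest in the hemoglobin-rich libraries, and in bone replicate 2 it lay below the 0.205 FPKM that 3 pairs on 1 kb give there. *Ltbp3* (chr19:5740904-5758602, plus strand), a carrier of latent TGF-beta needed for normal bone growth, varied least of the members. It measured 12.7, 4.65 and 11.4 FPKM in the bone libraries and 9.70, 12.0 and 12.2 FPKM in the osteoblasts libraries, and neither the labels nor the hemoglobin-rich libraries separated.

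Of the summed FPKM of these 3 binding proteins, *Ltbp2* took 79.3, 81.2 and 17.7% in the bone libraries and 63.8, 20.0 and 15.7% in the osteoblasts libraries. *Ltbp3* was the most abundant of the 3 in the hemoglobin-rich libraries, with 47.6, 57.2 and 58.4%, and *Ltbp2* in the others. With coverage in place of FPKM the same gene led in each library.

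No feature bears the name *Ltbp1*, the binding protein that most widely carries latent TGF-beta. An unnamed feature on the plus strand of chr17:75005568-75392512 spans the RefSeq gene *Ltbp1* (chr17:75005480-75392512), with the pseudogene *Gm6276* inside it. That feature measured 82.4, 40.4 and 13.6 FPKM in the bone libraries and 49.2, 13.4 and 15.0 FPKM in the osteoblasts libraries. It was lowest in the hemoglobin-rich libraries. In each library its FPKM was above that of *Ltbp2*, *Ltbp3* and *Ltbp4*. It is left out of every count of members, of the shares of the binding proteins and of the order of members by mean FPKM. The leading binding protein named above is therefore the leading one among the named genes only.

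**Figure D2:**
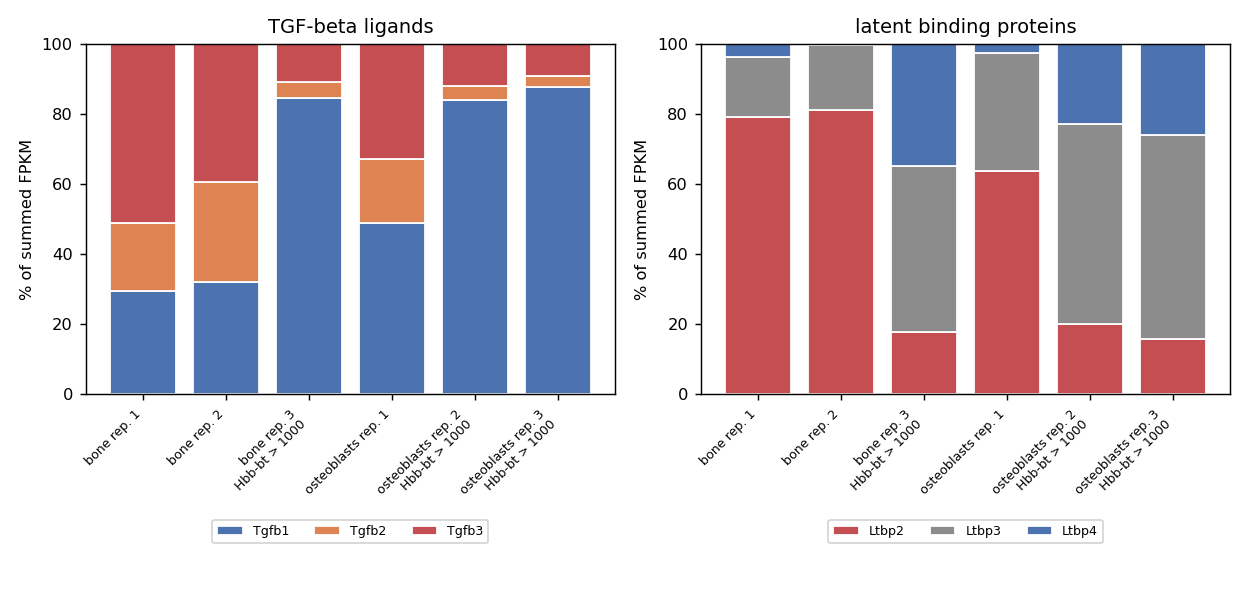
Percent of the summed FPKM taken by each TGF-beta ligand (left) and by each named latent binding protein (right) in each library, as stacked bars from 0 to 100. *Tgfb1* takes 84.1 to 87.7% in the 3 libraries marked with *Hbb-bt* above 1000 FPKM and 29.5 to 49.0% in the others, and *Ltbp2* takes 15.7 to 20.0% and 63.8 to 81.2% in the same sets.

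*Lrrc32* (chr7:98489283-98502181, plus strand) encodes GARP, which displays latent TGF-beta on platelets, regulatory T cells and endothelium. It measured 8.58, 3.37 and 10.1 FPKM in the bone libraries and 3.38, 8.88 and 7.43 FPKM in the osteoblasts libraries. Bone replicate 2 and osteoblasts replicate 1, the libraries rich in unnamed features, had the lowest values, and the hemoglobin-rich libraries overlapped with the rest through bone replicate 1. The ratio of *Lrrc32* to *Nrros*, the related anchor of latent TGF-beta on myeloid cells, lay between 0.222 and 0.315 in the 6 libraries, and between 0.53 and 0.825 by coverage, a pair chosen after its values were seen.

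Markers of cells that carry GARP moved with some of these values. The megakaryocyte and platelet markers with a name (6 of 8, *Pf4* the highest) summed to 53.3 to 120 FPKM in the libraries without abundant hemoglobin, where *Ppbp* was at 0, and to 652 to 826 FPKM in the hemoglobin-rich ones. Endothelial markers (5 of 5, *Pecam1* the highest) summed to 0.273 to 5.04 FPKM and to 33.5 to 47.1 FPKM in the same sets. Regulatory T cell markers (4 of 5 named, without *Foxp3*, with *Ikzf2* the highest) summed to at most 4.84 FPKM in any library. *Lrrc32* was lowest in bone replicate 2 and osteoblasts replicate 1, where the platelet sum was 53.3 and 86.9 FPKM, and measured 7.43 to 10.1 FPKM in the hemoglobin-rich libraries. In bone replicate 1, with a platelet sum of 120 FPKM, it lay within that range at 8.58 FPKM. The part of these cells in the levels of *Tgfb1*, *Ltbp4* and *Lrrc32* was not tested, and in bulk RNA fewer cells of a type and less RNA per cell cannot be told apart.

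Other cell types moved with the same libraries. Erythroid markers (4 of 7 named) summed to at most 7.26 FPKM in the libraries without abundant hemoglobin and to 35188 to 49734 FPKM in the hemoglobin-rich ones. Neutrophil markers (7 of 7, *S100a9* the highest) summed to at most 5.51 FPKM and to 14246 to 17225 FPKM, with *Elane* at 0 in the first set. Macrophage markers (6 of 6, *C1qa* the highest) went the other way, with 1397 to 2762 FPKM in the libraries without abundant hemoglobin and 403 to 533 FPKM in the hemoglobin-rich ones. Skeletal muscle markers (3 of 5, *Acta1* the highest) summed to at most 1.09 and to 221 to 943 FPKM. In 3 further lists the genes did not share the order of the sum. Osteoclast markers (6 of 6, *Acp5* the highest) summed to 47.1 to 261 and to 447 to 500 FPKM, but of the 4 tested only *Acp5* separated, and *Ctsk*, *Dcstamp* and *Atp6v0d2* overlapped. Stromal markers (3 of 5, *Pdgfrb* the highest) summed to 30.5 to 81.9 and to 27.6 to 28.7 FPKM, with *Thy1* and *Lepr* overlapping. Osteocyte markers (4 of 5, *Dmp1* the highest) summed to 55.3 to 133 and to 45.4 to 51.7 FPKM, a sum in which *Dmp1* and *Sost* went opposite ways. The part of the osteoblast markers and of these lists in the member levels was not tested.

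*Inhba* and *Fst* moved together over a wide range, in an order of libraries that other members shared. Pearson's r of log2(FPKM + 1) over the 6 libraries was 0.97 between *Fst* and *Inhba*. It was also 0.97 between *Fst* and each of *Tgfb2*, *Tgfb3* and *Ltbp2*. *Inhba* (chr13:16011851-16031621, plus strand), whose product forms activin A, measured 8.45, 6.47 and 0.329 FPKM in the bone libraries and 4.85, 0.622 and 0.753 FPKM in the osteoblasts libraries. *Fst* (chr13:114452262-114458949, minus strand), its secreted antagonist, measured 41.7, 14.0 and 1.5 FPKM in the bone libraries and 22.9, 2.23 and 2.38 FPKM in the osteoblasts libraries. Both were lowest in the hemoglobin-rich libraries, where *Inhba* stayed below 1 FPKM, and the next values were 6.45 times as high for *Inhba* and 5.88 times for *Fst*. *Inhba* spanned 25.7 times from its lowest to its highest library and *Fst* 27.8 times, and *Fst* was 2.17 to 4.94 times as high as *Inhba* within a library. By coverage that ratio ran more widely, from 1.79 in osteoblasts replicate 3 to 8.49 in osteoblasts replicate 1.

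**Figure D3:**
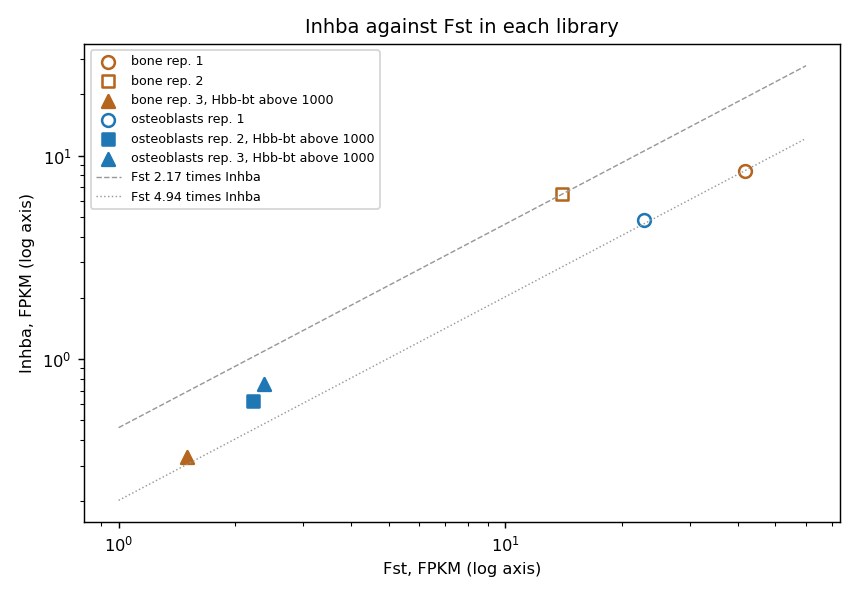
*Inhba* against *Fst* in each library, both in FPKM on log axes, with bone in brown, osteoblasts in blue and filled symbols for libraries with *Hbb-bt* above 1000 FPKM. The points lie on or between the dashed and dotted lines, at which *Fst* is 2.17 and 4.94 times *Inhba*.

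The log2 ratio of *Inhba* to *Fst* (0.1 FPKM added to each) averaged -1.76 ± 0.61 (SD, n = 3) in bone and -1.82 ± 0.35 (SD, n = 3) in osteoblasts. The difference of -0.05 was smaller than the spread (p = 1, two-sided exact permutation test). With 3 libraries against 3 the exact p cannot fall below 0.1. The sign rested on single libraries, since the difference was 0.28 without bone replicate 2, which had the highest ratio, and 0.15 without osteoblasts replicate 1.

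The members were compared between the labels in a fit over all genes tested. On the log2(FPKM + 1) scale, the estimates for osteoblasts minus bone ran from -1.31 for *Ltbp2* (standard error 0.91, 95% interval -3.37 to 0.75) to 0.53 for *Tgfb1* (standard error 0.56, interval -0.74 to 1.79). limma called 0 of the 9 members, each with an adjusted p of 0.999, beside 0% of all genes tested as higher and 0% as lower. At an unadjusted p under 0.05 it gave 17 of the 12112 genes and 0 members. The intervals reach more than 1 log2 unit to at least one side of 0 for each member, so a difference of that size to that side was not excluded with 3 libraries each.

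**Figure D4:**
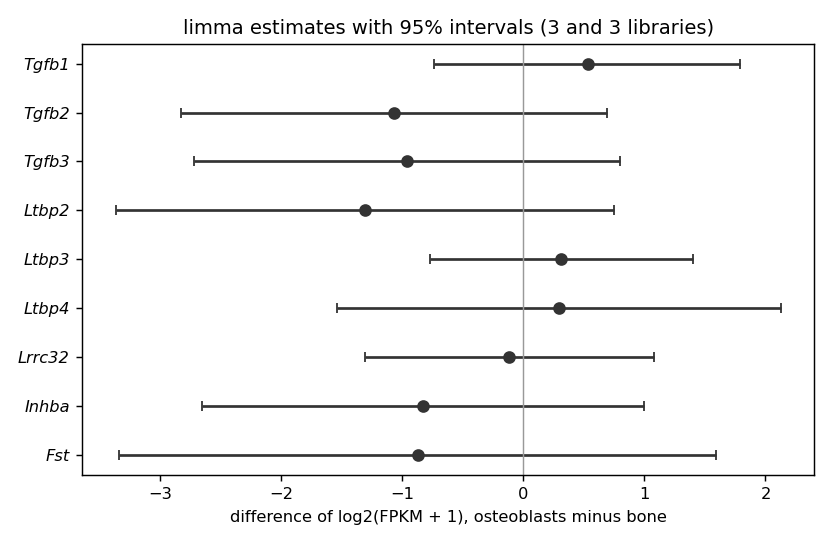
Difference of log2(FPKM + 1) between the labels, osteoblasts minus bone, for the 9 named genes, as the limma estimate (point) with its 95% interval (bar) over 3 and 3 libraries. Each interval includes 0, and the estimates run from -1.31 for *Ltbp2* to 0.53 for *Tgfb1*.

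Label means show the same spread. *Tgfb1* was 28.7 ± 17.4 FPKM (SD, n = 3) under bone and 37.1 ± 6.18 FPKM under osteoblasts. *Tgfb3* was 22.4 ± 20.5 and 10.1 ± 9.0 FPKM, and *Fst* 19.1 ± 20.6 and 9.18 ± 11.9 FPKM. For *Ltbp2*, *Inhba* and *Tgfb2* the SD under osteoblasts was close to or above the mean as well, at 8.66 ± 8.51, 2.08 ± 2.41 and 4.92 ± 5.65 FPKM. *Ltbp3* (9.58 ± 4.32 and 11.3 ± 1.4 FPKM), *Ltbp4* (3.67 ± 4.2 and 3.66 ± 2.5 FPKM) and *Lrrc32* (7.34 ± 3.52 and 6.56 ± 2.85 FPKM) had the closest means. The SD within a label of log2(FPKM + 1) was 1.87 for *Fst*, above that of 96.3% of the genes tested, and 0.51 for *Ltbp3*, above that of 38.2%.

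No member had its 3 values under one label all above those under the other, an order that 0.438% of the genes tested showed with bone higher and 0.479% with osteoblasts higher. The hemoglobin-rich libraries were all below the other 3 for 5 of the 9 members (*Tgfb2*, *Tgfb3*, *Ltbp2*, *Inhba* and *Fst*), as for 16.9% of all genes tested. They were all above the other 3 for 2 of 9 (*Tgfb1* and *Ltbp4*), as for 38.4% of all genes. Those 5 members and *Ltbp4* had the same order with TPM, with coverage, and after scaling to the sum of named genes, to the 75th percentile or by quantiles, but *Tgfb1* overlapped under the last 3. With the sum of named genes as the scale, the background share was 48.6% for the lower order, so that 5 of 9 is then near it. Read for the whole list, these counts therefore depend on the scale. The filter on mean FPKM also admits genes that are high in a single set of libraries. *Inhba*, below 1 FPKM in each hemoglobin-rich library, passed it through the other libraries alone. *Elane*, at 0 in the libraries without abundant hemoglobin, passed it through the hemoglobin-rich ones. Such genes enter the counts and the shares over all genes by the same split that is counted.

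By mean FPKM over the 6 libraries the order was *Tgfb1* (32.9 ± 12.6, SD, n = 6), *Ltbp2* (18.2 ± 21.3), *Tgfb3* (16.2 ± 15.7), *Fst* (14.1 ± 16.0), *Ltbp3* (10.4 ± 3.02), *Tgfb2* (7.67 ± 6.58), *Lrrc32* (6.95 ± 2.90), *Ltbp4* (3.67 ± 3.09) and *Inhba* (3.58 ± 3.49). Of neighbours in this order, only *Lrrc32* exceeded the next gene, *Ltbp4*, in all 6 libraries, and *Tgfb3* exceeded *Fst* in 5. The remaining neighbours changed places in at least 2 libraries. On the coverage scale *Tgfb3* came first and *Tgfb2* last.

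The receptors varied less than the ligands *Tgfb2* and *Tgfb3*. Of 10 receptor genes 8 had a name (not *Acvrl1* and *Acvr1*) and 7 were tested, of which 2 were lowest in the hemoglobin-rich libraries and 0 highest, beside 16.9% and 38.4% of all genes. With the sum of named genes as the scale these counts were 4 and 0, beside 48.6% and 21.4%. By coverage they were 3 and 1, beside 19.4% and 37.4%. *Tgfbr2*, the type II receptor that binds TGF-beta first, measured 45, 22.7 and 22.0 FPKM in the bone libraries and 25.8, 28.8 and 18.4 FPKM in the osteoblasts libraries. *Tgfbr1*, the signalling type I receptor, measured 16.1, 12.1 and 2.26 FPKM and then 7.30, 3.40 and 4.75 FPKM, and was lowest in the hemoglobin-rich libraries. The co-receptors *Eng* (endoglin) and *Tgfbr3* (betaglycan) ranged from 7.89 to 23.3 and from 5.14 to 20.9 FPKM and showed no such order. The activin receptor *Acvr2a* was also lowest in the hemoglobin-rich libraries, with 1.57 to 3.19 FPKM in the libraries without abundant hemoglobin and 0.630 to 0.752 FPKM in the others.

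Of 5 Smads 3 had a name (not *Smad3* and *Smad6*), and 1 of these was lowest in the hemoglobin-rich libraries, beside 16.9% of all genes. *Smad2*, phosphorylated by the TGF-beta and activin receptors, ranged from 5.42 to 13.7 FPKM and its partner *Smad4* from 9.02 to 20.7 FPKM, both highest in bone replicate 1 and with overlapping sets. The gene with that order was the inhibitory *Smad7*, itself induced by TGF-beta, which measured 11.1, 5.68 and 3.77 FPKM in the bone libraries and 6.21, 3.27 and 3.48 FPKM in the osteoblasts libraries. Among the inhibitors of the signal (5 of 7 named, all 5 tested, not *Skil* and *Smurf2*), *Ski*, *Tgif1* and *Pmepa1* were likewise lowest in the hemoglobin-rich libraries, and *Smurf1* and *Bambi* overlapped. With the sum of named genes as the scale all 3 Smads and all 5 inhibitors were lowest there, beside 48.6% of all genes. *Pmepa1*, a feedback inhibitor induced by TGF-beta, ranged from 8.52 to 17.0 FPKM in the libraries without abundant hemoglobin and from 3.06 to 4.57 FPKM in the others.

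Of the 5 TGF-beta target genes, 4 were lowest in the hemoglobin-rich libraries and 0 highest, beside 16.9% and 38.4% of all genes. With the sum of named genes as the scale all 5 were lowest, beside 48.6%. *Cdkn2b*, the cell cycle inhibitor p15, measured 35.4, 21.3 and 0.475 FPKM in the bone libraries and 27.2, 0.604 and 0.597 FPKM in the osteoblasts libraries. The libraries with abundant hemoglobin were lowest, and the next value was 35.4 times as high. *Ctgf*, a matricellular growth factor, ranged from 147 to 312 FPKM in the libraries without abundant hemoglobin and from 24.6 to 26.0 FPKM in the others, and *Postn* (periostin) from 141 to 342 and from 16.7 to 21.0 FPKM. *Tgfbi*, a collagen-binding target gene, did not show this order by FPKM and stayed between 22.9 and 44.0 FPKM.

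**Figure D5:**
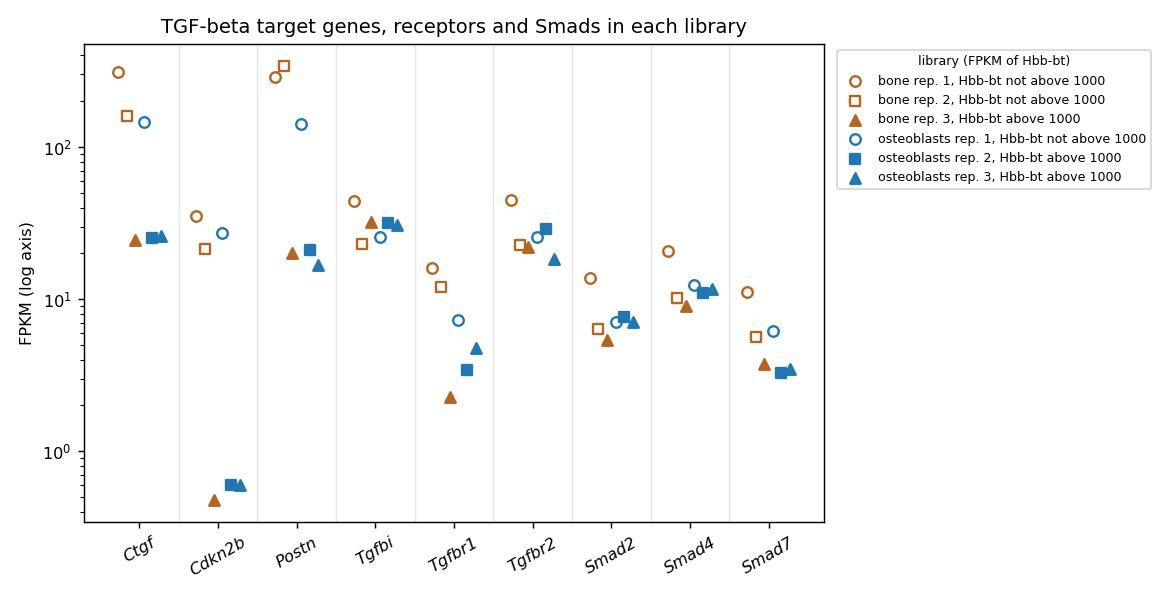
FPKM (log axis) of 4 TGF-beta target genes, 2 receptors and 3 Smads in each library, with bone in brown, osteoblasts in blue and filled symbols for libraries with *Hbb-bt* above 1000 FPKM. *Ctgf*, *Cdkn2b* and *Postn* are lowest in the filled symbols, while *Tgfbi*, *Tgfbr2*, *Smad2* and *Smad4* overlap.

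Genes that store or free latent TGF-beta were mixed, with 6 of the 11 tested lowest in the hemoglobin-rich libraries and 2 (*Mmp9* and the integrin subunit *Itgb3*) highest, beside 16.9% and 38.4% of all genes. With the sum of named genes as the scale these counts were 8 and 2, beside 48.6% and 21.4%. Of the 15 genes listed, 14 had a name, and *Mmp2* had none. Thrombospondin 1 (*Thbs1*), which activates latent TGF-beta, was the highest, with 631 to 1067 FPKM in the libraries without abundant hemoglobin and 77.4 to 90.2 FPKM in the others. *Fbn1*, the fibrillin to which latent binding proteins attach, ranged from 31.5 to 73.7 and from 7.10 to 9.36 FPKM in the same sets. The integrin subunits *Itgb5* (111 to 213 and 30.1 to 34.5 FPKM) and *Itgb1* (107 to 196 and 19.0 to 28.9 FPKM) had that order too. *Mmp9*, a protease of osteoclasts and neutrophils, measured 64.8, 2.96 and 263 FPKM in the bone libraries and 30.2, 257 and 308 FPKM in the osteoblasts libraries, with the hemoglobin-rich libraries the highest.

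The activin B subunit *Inhbb* measured 8.29, 6.11 and 0.776 FPKM in the bone libraries and 7.50, 0.754 and 0.933 FPKM in the osteoblasts libraries, again lowest in the hemoglobin-rich libraries. The follistatin relative *Fstl3* measured 15.8, 8.80 and 0.578 FPKM and then 8.16, 1.87 and 0.637 FPKM, also low wherever *Fst* was low. *Gdf11*, a ligand related to myostatin, had the same 3 libraries lowest over a smaller range, from 1.35 to 7.47 FPKM. These were the 3 genes of this list that were tested, and the order was that of 16.9% of all genes. With the sum of named genes as the scale the 3 kept it, beside 48.6% of all genes. *Inha*, the inhibin subunit, stayed below 0.5 FPKM, and *Inhbc* was listed at 0 in the 6 libraries.

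In all, 42 of the 49 pathway genes had a name and 34 were tested. limma called 0 of the 34 between the labels and gave 0 with an unadjusted p under 0.05. The hemoglobin-rich libraries were all below the other 3 for 19 of the 34 and all above for 2, beside 16.9% and 38.4% of all genes tested. With the sum of named genes as the scale these counts were 28 and 2, beside 48.6% and 21.4%. *Acvr2a*, *Inhbb* and *Cdkn2b* were below 1 FPKM in each hemoglobin-rich library, so they passed the filter through the other libraries alone.

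Leaving out a library changed calls among the pathway genes and none among the members. Without osteoblasts replicate 1, limma called 2 pathway genes, both lower under the label osteoblasts, among them *Cdkn2b* (log2 fold change -2.73, standard error 0.749, limma adjusted p = 0.0344). Without bone replicate 3 it called 1 pathway gene, also lower. The same omissions raised the count over all genes from 0 to 300 and to 77. Without osteoblasts replicate 1 the label osteoblasts held hemoglobin-rich libraries only, and without bone replicate 3 the label bone held none. In these fits the label and the hemoglobin content of the libraries therefore cannot be told apart.

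For each member the 3 genes with the most similar pattern were found by Pearson's r of log2(FPKM + 1) over the 6 libraries, as a description, since the libraries fall into sets and r largely restates that order. *Fst* was most like *Cdh11*, *Grb14* and *Gnai1* (r of 0.999 to 1.00), *Tgfb2* most like *Acta2*, *Thbs2* and *Scrn1*, *Tgfb3* most like *Fscn1*, *Osbpl3* and *Gstm2*, and *Ltbp2* most like *Pkd2*, *Gm5454* and *Ift81*. *Inhba* was most like *Polk*, *Msr1* and *Tlr13*, and *Ltbp4* most like *Dnajc27*, *Gm9726* and *Tln1*. *Tgfb1* was most like *Hmga1*, *Gm11964* and *Snhg1*, *Ltbp3* most like *Pdcd11*, *Rpl19-ps4* and *Gm6222*, and *Lrrc32* most like *Gsn*, *Rgs19* and *Tti2*. Between 10 and 110 genes had an r above 0.99 with a given member.

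Some members share genomic positions with other genes. The library kit does not mark strand, so reads where *Inhba* overlaps the transcribed pseudogene *B230303A05Rik* cannot be assigned by strand. *Tgfb2*, *Ltbp2*, *Ltbp4* and *Fst* each overlap a lncRNA in RefSeq, and the same limit holds there.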

How the data were processed

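RNA of 3 libraries labelled bone and 3 labelled osteoblasts was sequenced as 75 bp pairs. By the study's methods and the submitters' processing notes, reads were aligned to GRCm38 with HISAT2 2.0.5 and quantified with StringTie 1.3.3, with SAMtools 1.7 also named. The authors deposited, for each feature, FPKM (scaled to transcript length and aligned fragments), TPM (FPKM rescaled to a fixed total) and coverage (mean read depth, a signal). No read counts were used.

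Rows sharing a gene name were summed, and groups and replicate numbers came from the labels. Library depth was taken as the commonest coverage-to-FPKM ratio over features covered more than 1 time. Genes with a mean of at least 1 FPKM were tested between the labels on log2(FPKM + 1) using limma (version 3.58.1, R 4.3.3; linear fit and trended eBayes), Benjamini-Hochberg adjusted over all genes tested at a threshold of 0.05; limma was first tested on simulated data. Promoter windows came from RefSeq (GRCm38.p6). Python 3.11.15, pandas 2.3.3, numpy 2.4.6 and matplotlib 3.10.9 were used otherwise.

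The members and gene lists were chosen with earlier results of these data known. The genes named are the members, the 4 genes of each pathway list with the highest mean FPKM, pathway genes past the threshold, the highest marker of each list with those at 0, and the 3 genes most like each member; others were chosen after their values were seen. Some genes that these rules name are not reported here. Alternatives were other pseudocounts, filters and scalings, TPM, no trend, the replicate block and leaving out each library. Coverage in place of FPKM, leaving out both libraries rich in unnamed features, and the order of libraries on each scale were added after the data were seen.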

Additional observations from a re-analysis of the deposited data

Results flagged for a closer look

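The unnamed feature that spans *Ltbp1* on chromosome 17 was set apart because it carries signal outside the named genes compared here, above the floor of 3 read pairs in each library. Its lowest value was 13.4 FPKM, in osteoblasts replicate 2, and its highest 82.4 FPKM, in bone replicate 1. With 3 libraries per label, no library was tested for standing apart within its label.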

How the results depend on the processing

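The count of genes called between the labels stayed at 0 except with the replicate block and on leaving out bone replicate 3 or osteoblasts replicate 1. With the replicate block limma called 49 genes (46 higher and 3 lower under osteoblasts), and leaving out 1 library gave 0 to 300, with 77 without bone replicate 3 and 300 without osteoblasts replicate 1. Both of these omissions bring the labels closer to the split by hemoglobin. The numbers were not taken as pairs: deviations of same-numbered libraries correlated at 0.84, -0.75 and 0.83 for numbers 1, 2 and 3, and no label ties a number to a mouse. No member was called under any alternative, and the pathway count ran from 0 to 2 when 1 library was left out and was 0 otherwise, with the block included. Of 160 fold changes of members under the alternatives, 153 kept their direction and 7 changed sign, each of the 7 on leaving out 1 library: the ranges were -0.09 to 0.55 for *Ltbp3*, -0.52 to 1.04 for *Ltbp4*, -0.53 to 0.24 for *Lrrc32* and -1.99 to 0.06 for *Fst*. The lowest adjusted p of a member was 0.106 on leaving out 1 library and 0.924 otherwise. The difference in the log2 ratio of *Inhba* to *Fst* turned to 0.04 with a pseudocount of 1 and ran from -0.32 to 0.28 on leaving out 1 library, and by the replicate block it stayed at -0.05. With coverage in place of FPKM the mean share of *Tgfb1* among the ligands under osteoblasts was 51.7% against 73.6%. The median log2 fold change of all genes was 0.12, and -0.03 with scaling to the sum of named genes. The causes of these changes were not tested, and without read counts no counting interval can be given for an FPKM.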
